A study of Mus musculus with 19 samples.

Results

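The genes described here are 7 liver genes that are active in the fetus, fall silent or nearly so in the adult organ, and are used as oncofetal markers of liver cancer: Afp, Igf2, H19, Gpc3, Dlk1, Igf2bp3 and Lin28b. They were found by symbol in a table of 19486 genes measured by RNA sequencing in 19 mouse liver tumor libraries. A symbol was found for 6 of the 7, and H19 was not analysed here. The groups, named as in the labels, were MYC_Recur, MYC_Twist1_OFF and MYC_OFF with 3 libraries each, and MYC_Twist1_HCC and MYC_HCC with 5 each. Every sample was given as hepatocellular carcinoma (HCC) of the liver, from bulk tumor tissue. The names hold MYC in all 5 groups and Twist1 in 2, and the labels state no promoter, allele, strain, age, treatment or time, and no meaning for OFF or Recur. The study's design text names only the comparison of MYC/Twist1 tumors with MYC tumors, and its title speaks of tumor evolution.

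Afp encodes alpha-fetoprotein, the main plasma protein of the fetal liver and yolk sac and the serum marker of liver cancer, and lies beside the albumin gene Alb. Igf2 encodes a fetal growth factor that signals through the receptors IGF1R and INSR and is cleared by IGF2R. The proteins are named AFP, IGF2, GPC3, DLK1, IGF2BP3 and LIN28B. Igf2 is imprinted together with H19, a noncoding RNA, and Dlk1, a membrane ligand related to the Notch ligands, is imprinted at another locus together with Meg3. Gpc3 encodes glypican-3, a cell surface proteoglycan that is a marker of human liver cancer. Igf2bp3 and Lin28b encode RNA-binding proteins of fetal cells, the first known to bind mRNAs such as that of Igf2 and the second to block maturation of the let-7 microRNAs.

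The promoters of 3 of these genes are shown because their windows hold matches to known motifs, and they were picked after the sequences had been searched. Each is a RefSeq window of 300 bases on GRCm38.p6, from 250 bases before the gene's start to 50 after it, written along the gene's strand with the matches in capitals. The E-box CACGTG, which reads the same on both strands and is the site MYC and its partner MAX are known to bind, was searched along with GTTAAT, part of the site of the liver factor HNF1, on both strands, and the TATA box TATAAA on the gene's strand. The motifs do not overlap one another in these windows. Igf2bp3 has an E-box at base 228 and another at base 256 of its window at chr6:49214905-49215204 (minus strand), on either side of the start.
Igf2bp3: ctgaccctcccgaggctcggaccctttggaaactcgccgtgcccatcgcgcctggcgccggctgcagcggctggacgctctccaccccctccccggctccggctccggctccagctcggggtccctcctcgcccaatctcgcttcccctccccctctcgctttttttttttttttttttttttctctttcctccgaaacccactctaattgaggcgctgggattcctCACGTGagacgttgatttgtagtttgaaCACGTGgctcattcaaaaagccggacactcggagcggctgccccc
Lin28b has an E-box at base 202 of its window at chr10:45470152-45470451 (minus strand), before the RefSeq start by which the window was placed. The window lies inside the gene as GENCODE draws it, downstream of the GENCODE start.
Lin28b: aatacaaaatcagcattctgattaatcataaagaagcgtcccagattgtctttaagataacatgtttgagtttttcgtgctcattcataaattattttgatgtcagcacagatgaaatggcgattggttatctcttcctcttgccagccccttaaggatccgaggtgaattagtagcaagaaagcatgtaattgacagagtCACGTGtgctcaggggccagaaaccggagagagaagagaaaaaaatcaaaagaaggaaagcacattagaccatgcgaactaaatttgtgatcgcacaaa
Afp has GTTAAT at base 146 and TATAAA at base 244 of its window at chr5:90490464-90490763 (plus strand).
Afp: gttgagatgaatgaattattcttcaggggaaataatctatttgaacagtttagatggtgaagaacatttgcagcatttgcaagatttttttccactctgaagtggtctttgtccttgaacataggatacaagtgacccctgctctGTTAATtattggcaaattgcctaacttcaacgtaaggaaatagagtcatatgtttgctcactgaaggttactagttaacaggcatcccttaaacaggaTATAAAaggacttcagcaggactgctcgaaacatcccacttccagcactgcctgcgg
Of 32851 promoter windows of mouse genes, 7.15% held CACGTG at least once and 0.594% held it more than once. GTTAAT was present in 7.10% and TATAAA in 8.32%. The windows of Dlk1 and Gpc3 and the 4 windows of Igf2 held none of the motifs. A match describes these letters and not a site that is bound.

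On GRCm38 with GENCODE annotation, Afp lies on chromosome 5 from 90490737 to 90508907 on the plus strand, 14135 bases beyond the end of Alb. Igf2 lies on chromosome 7 from 142650766 to 142666816 (minus strand), and Dlk1 on chromosome 12 from 109452823 to 109463336 (plus strand). Igf2bp3 lies on chromosome 6 from 49085223 to 49214957, Lin28b on chromosome 10 from 45376620 to 45486395 and Gpc3 on chromosome X from 52272426 to 52613950, all on the minus strand. Igf2 overlaps Gm49394 on its own strand and the antisense gene Igf2os, Afp overlaps the antisense gene Gm43449, Gpc3 overlaps the antisense genes Gm14582 and A630012P03Rik, and Igf2bp3 overlaps Malsu1 on the opposite strand. The strand setting of the counting is not given in the sources used here, so the reads of these neighbours cannot be told apart from those of the genes.

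The deposited values are normalized per gene with a formula that is not given, so levels are compared between libraries and not between genes, and the depth of each library is unknown. They summed to between 507868 and 690310 per library. Per the labels, the 10 HCC libraries had been deposited before and the 9 OFF and Recur libraries had not, so a difference of OFF or Recur from HCC cannot be told apart from one between the deposits. Myc averaged 156 ± 3.14 in MYC_Recur, 39.7 ± 6.65 in MYC_Twist1_OFF, 45.7 ± 13.1 in MYC_OFF, 125.0 ± 19.3 in MYC_Twist1_HCC and 159.5 ± 19.2 in MYC_HCC (SD, n = 3, 3, 3, 5 and 5), so it separated the OFF libraries from the rest. Twist1 was at most 0.12 in the libraries labelled MYC_Twist1_HCC and at most 0.27 in those labelled MYC_HCC, so its level does not check that part of the labels. All 31 hepatocyte markers in the table were above 0 in every library, with Alb between 241 and 4480.1. MYC_HCC 4 stood apart from the other 4 libraries of its group: its hepatocyte markers summed to 29432, against 15302 to 17997, its endothelial markers to 118, against 22.6 to 35.7, and its proliferation genes to 839, against 1454 to 1535. In bulk tissue, fewer cells of a type and less RNA per cell cannot be told apart.

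Of the 6 genes, Afp, Igf2, Gpc3, Dlk1 and Igf2bp3 passed the filter of at least 1 in at least 3 libraries, and Lin28b did not. Group differences are those of mean log2(value + 1), a scale on which low genes appear to change less than they do, with limma's p-values adjusted by the Benjamini-Hochberg method over 13253 genes and a call at an adjusted p under 0.05. In MYC_OFF, Igf2bp3 and Igf2 fell against MYC_HCC, and none of the 5 rose. A fall was called in 2 of 5 here, against a background of 39.4% of all genes tested (58.3% in either direction). The same 2 genes fell in MYC_Twist1_OFF against MYC_Twist1_HCC, beside a background of 33.5% falling and 46.6% changing. In MYC_Recur against MYC_OFF, Igf2bp3, Igf2 and Dlk1 rose, 3 of 5, beside a background of 37.5% rising and 49.4% changing. With 5 genes these shares are too near their backgrounds to set the genes apart, and what follows rests on the single genes.

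The scaling of libraries bears on these counts. The 10 most abundant genes took 22.6% to 26.7% of the summed values in MYC_Twist1_OFF and 21.0% to 28.8% in MYC_OFF, against 8.43% to 12.7% in MYC_Twist1_HCC and 6.95% to 8.56% in MYC_HCC, and they took 7.75% to 12.4% in MYC_Recur. Of all called genes, 32.5% were higher in MYC_OFF than in MYC_HCC, and 45.7% to 54.5% under 3 other scalings. For MYC_Twist1_OFF against MYC_Twist1_HCC the share was 28.0%, and 41.2% to 53.9% under those scalings, and for MYC_Recur against MYC_OFF it was 75.8%, and 47.7% to 56.7%. For MYC_Recur against MYC_HCC it was 63.7%, and 50.2% to 58.1%, and for MYC_Twist1_HCC against MYC_HCC it was 49.8%, and 49.1% to 60.1%.

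Igf2bp3 showed the largest differences of the 5 genes in both OFF against HCC comparisons. Its values were 27.05, 7.49 and 21.6 in MYC_Recur, and 0.84, 1.90 and 1.07 in MYC_Twist1_OFF. They were 2.14, 0.21 and 5.67 in MYC_OFF, 23.9, 31.1, 37.5, 28.0 and 12.6 in MYC_Twist1_HCC, and 30.3, 46.6, 48.6, 22.0 and 31.6 in MYC_HCC. Every OFF library lay below every library of the other 3 groups, and MYC_Recur lay within or below the range of the HCC groups. The mean was 2.67 ± 2.77 in MYC_OFF, against 35.8 ± 11.4 in MYC_HCC (SD, n = 3 and 5), a log2 difference of -3.59 (SE 0.48, limma adjusted p = 5.83e-06). It was 1.27 ± 0.558 in MYC_Twist1_OFF, against 26.6 ± 9.27 in MYC_Twist1_HCC (n = 3 and 5), a difference of -3.55 (SE 0.48, limma adjusted p = 1.7e-05). In MYC_Recur it was 18.7 ± 10.1, against 2.67 ± 2.77 in MYC_OFF (n = 3 each), a difference of 2.58 (SE 0.53, limma adjusted p = 0.000663). Only 0.732% of all genes had a lower difference in MYC_OFF against MYC_HCC, and 0.249% in MYC_Twist1_OFF against MYC_Twist1_HCC. The calls of Igf2bp3 in these 3 comparisons were made under all 28 alternatives.

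**Figure D1:**
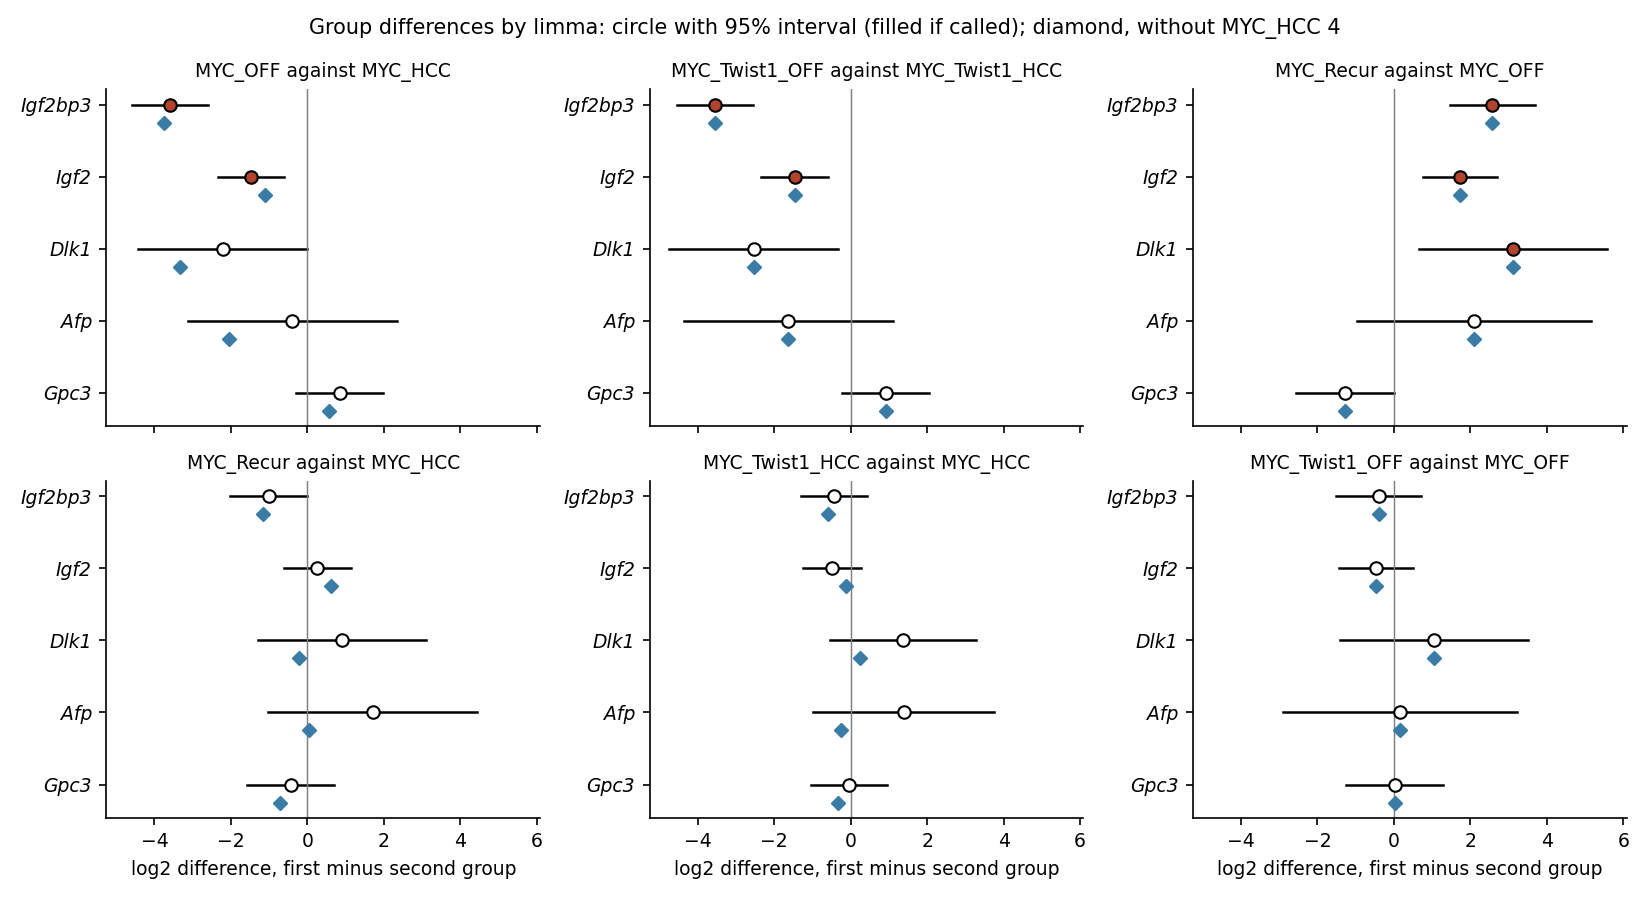
Log2 differences of the 5 genes tested in 6 comparisons, the first group minus the second, with the limma 95% interval (circles, filled where called) and the value without MYC_HCC 4 (diamonds). Igf2bp3 is at -3.59 and -3.55 in the OFF against HCC panels, and the intervals of Afp are wide in all panels.

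Igf2, the ligand, fell in both groups of OFF tumors. It stood at 1355, 1882 and 3559.6 in MYC_Recur, at 598, 359 and 437 in MYC_Twist1_OFF and at 1015, 516 and 471 in MYC_OFF. It stood at 1098, 1052, 1419, 1477 and 1256 in MYC_Twist1_HCC and at 1233, 1124, 1586, 4736 and 1545 in MYC_HCC. All 6 OFF libraries were below all 13 others, and MYC_HCC 4 held the highest value of the 19. In MYC_OFF it averaged 667 ± 302, against 2045 ± 1518 in MYC_HCC (SD, n = 3 and 5), a log2 difference of -1.47 (SE 0.42, limma adjusted p = 0.00565). In MYC_Twist1_OFF it averaged 465 ± 122, against 1261 ± 188 in MYC_Twist1_HCC, a difference of -1.46 (SE 0.42, limma adjusted p = 0.00844). In MYC_Recur it averaged 2265 ± 1151, against 667 ± 302 in MYC_OFF, a difference of 1.73 (SE 0.46, limma adjusted p = 0.005). The calls depended on how libraries are scaled to one another: with the median of ratios, the differences were -0.91 (adjusted p = 0.0875), -1.01 (0.0727) and 1.05 (0.092) by limma in the same order, and with the upper quartile the calls were lost too. The other 26 alternatives kept the call in each comparison, with adjusted p-values of 0.000519 to 0.0976 over all alternatives and the 3 comparisons.

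Dlk1, the membrane ligand, was low in 5 of the 6 OFF libraries. Its values were 71.0, 33.1 and 29.4 in MYC_Recur, 2.48, 55.0 and 4.32 in MYC_Twist1_OFF and 5.57, 3.05 and 3.32 in MYC_OFF. They were 75.1, 66.0, 41.2, 65.4 and 47.9 in MYC_Twist1_HCC and 57.6, 60.9, 33.5, 0 and 46.1 in MYC_HCC. Single libraries set the spread: MYC_Twist1_OFF 2 was as high as the HCC libraries, and MYC_HCC 4 was listed at 0. Dlk1 averaged 44.5 ± 23.1 in MYC_Recur, against 3.98 ± 1.38 in MYC_OFF (SD, n = 3 each), with no overlap and a log2 difference of 3.11 (SE 1.17, limma adjusted p = 0.0347). That call was lost in 11 of 28 alternatives, namely each of 3 scalings, the smaller pseudocount, no filter and the omission of any one of the 6 libraries compared, with limma adjusted p-values up to 0.109. Against MYC_HCC, MYC_OFF differed by -2.22 (SE 1.05, limma adjusted p = 0.0771), and without MYC_HCC 4 by -3.34 (adjusted p = 0.000268), where the 4 remaining libraries averaged 49.5 ± 12.4. Against MYC_Twist1_HCC, MYC_Twist1_OFF differed by -2.54 (SE 1.05, limma adjusted p = 0.0549), and without MYC_Twist1_OFF 2 by -3.77 (adjusted p = 0.0106), where the other 2 libraries averaged 3.40 ± 1.30.

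Afp, the fetal plasma protein, was far lower in a single HCC library than anywhere else. It stood at 1554, 1896 and 2969 in MYC_Recur, at 678, 402 and 571 in MYC_Twist1_OFF and at 796, 318 and 439 in MYC_OFF. It stood at 1404, 1364, 1785, 2155 and 1719.6 in MYC_Twist1_HCC and at 1951, 1484, 2080.1, 5.55 and 2564 in MYC_HCC. The 6 OFF libraries lay below the 12 others apart from MYC_HCC 4, which held the lowest value of all 19. No difference was called with all libraries. It averaged 518 ± 248 in MYC_OFF, against 1617 ± 979 in MYC_HCC (SD, n = 3 and 5), a log2 difference of -0.39 (SE 1.30, 95% interval -3.12 to 2.34, limma adjusted p = 0.81). Under the other 3 scalings this difference changed sign, between 0.0059 and 0.23. Without MYC_HCC 4, where the group averaged 2019.7 ± 444 (n = 4), it was -2.04 (limma adjusted p = 4.18e-05). Between MYC_Twist1_OFF and MYC_Twist1_HCC, where no library overlapped, the difference was -1.62 (SE 1.30, limma adjusted p = 0.318), and 0.00037 was the adjusted p without MYC_HCC 4, which enters the fit only through the shared spread. MYC_Recur exceeded MYC_OFF by 2.10 (SE 1.45, limma adjusted p = 0.243), again with no overlap, and by the same amount with an adjusted p of 8.14e-05 without MYC_HCC 4.

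Gpc3 ran the other way, at low values. It stood at 1.59, 1.11 and 0.66 in MYC_Recur, at 4.86, 4.70 and 3.08 in MYC_Twist1_OFF and at 9.87, 2.33 and 2.60 in MYC_OFF. It stood at 2.19, 1.21, 1.18, 1.80 and 2.51 in MYC_Twist1_HCC and at 0.96, 1.47, 1.10, 0.31 and 12.2 in MYC_HCC. All MYC_Twist1_OFF libraries were above all MYC_Twist1_HCC libraries, and all MYC_Recur libraries were below all MYC_OFF libraries, while MYC_HCC 5 held the highest value of the 19. In the fit of the 5 group means to all libraries as deposited, none of these differences was called. They were 0.85 (SE 0.54, limma adjusted p = 0.187) in MYC_OFF against MYC_HCC, 0.92 (SE 0.54, limma adjusted p = 0.175) in MYC_Twist1_OFF against MYC_Twist1_HCC and -1.28 (SE 0.61, limma adjusted p = 0.0874) in MYC_Recur against MYC_OFF. Without MYC_HCC 4 and 5 all 3 were called, at 1.23, 0.92 and -1.28 with limma adjusted p-values of 0.0097, 0.0292 and 0.00809, and the MYC_HCC mean was then 1.18 ± 0.264, against 3.21 ± 5.06 with all 5. Among the scalings, 2 of 3 gave a call in MYC_OFF against MYC_HCC and all 3 did in MYC_Recur against MYC_OFF.

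Lin28b was near or at 0 throughout. It was listed at 0 in 14 of 19 libraries and reached at most 0.35, in MYC_Twist1_HCC 5, and the others above 0 were MYC_OFF with 0.19 and 0.18, and MYC_HCC with 0.06 and 0.04. With no filter, limma called no difference in any of the 7 comparisons. Its paralog Lin28a, expressed in embryonic cells, was at 0.05 to 3.16 in MYC_Twist1_HCC and at most 2.49 in MYC_HCC, and at most 0.23 in the OFF and MYC_Recur libraries. Lin28a was called lower in MYC_Twist1_OFF than in MYC_Twist1_HCC (log2 difference -1.15, SE 0.40, limma adjusted p = 0.0274) and lost the call in 6 of 28 alternatives. It was at 1 or more in 5 libraries, all of them HCC, so it passed the filter only through the groups where it is high. The call is tied to that selection, and the libraries of the compared groups overlapped. No call was made for the paralogs of Igf2bp3 in any comparison: Igf2bp1 averaged 15.7 ± 5.15 in MYC_OFF, against 8.88 ± 7.88 in MYC_HCC (SD, n = 3 and 5, limma adjusted p = 0.0836), and Igf2bp2 was at most 0.14. Igf2bp1 came nearest to a call in MYC_Twist1_HCC against MYC_HCC, at 1.89 (SE 0.63, limma adjusted p = 0.0768), where no library overlapped. In MYC_HCC 4 Igf2bp1 was listed at 0, and in MYC_HCC 5 it was 0.55.

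Where libraries of the groups were compared without a test, 2 of the 5 genes lay wholly below in MYC_OFF against MYC_HCC, beside 34.4% of all genes tested, and 3 in MYC_Twist1_OFF against MYC_Twist1_HCC, beside 37.1%. Between MYC_Twist1_OFF and MYC_Twist1_HCC 1 gene lay wholly above, beside 13.4%. In MYC_Recur against MYC_OFF, 4 lay wholly above, beside 41.2%, and 1 wholly below, beside 12.2%. The median of all genes was itself shifted in these comparisons, by -0.38, -0.32 and 0.45. Relative to that median, the differences of MYC_OFF against MYC_HCC were -3.21 for Igf2bp3, -1.84 for Dlk1, -1.10 for Igf2, -0.015 for Afp and 1.23 for Gpc3. Those of MYC_Twist1_OFF against MYC_Twist1_HCC were -3.23, -2.21, -1.13, -1.30 and 1.24 for the same genes in that order. Those of MYC_Recur against MYC_OFF were 2.12, 2.66, 1.28, 1.64 and -1.74. MYC_OFF against MYC_HCC and MYC_Recur against MYC_OFF share the MYC_OFF libraries, so their opposite signs are not independent.

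No call was made for the 5 genes in the remaining comparisons. MYC_Recur against MYC_HCC gave 0 of 5, beside 10.8% of all genes, with limma adjusted p-values of 0.192 to 0.752 and 1 unadjusted p under 0.05, that of Igf2bp3. Its Igf2bp3 difference was -1.01 (95% interval -2.01 to -0.01), that of Igf2 0.26 (-0.61 to 1.13), that of Dlk1 0.90 (-1.30 to 3.10), that of Afp 1.70 (-1.03 to 4.43) and that of Gpc3 -0.43 (-1.57 to 0.71). The libraries labelled MYC_Twist1_HCC against those labelled MYC_HCC gave 0 of 5, beside 6.43%, with adjusted p-values of 0.367 to 0.965 by limma and 0 unadjusted p under 0.05. Here Igf2bp3 differed by -0.44 (95% interval -1.30 to 0.43), Igf2 by -0.48 (-1.24 to 0.28), Dlk1 by 1.38 (-0.53 to 3.28), Afp by 1.39 (-0.97 to 3.76) and Gpc3 by -0.04 (-1.03 to 0.94). MYC_Twist1_OFF against MYC_OFF gave 0 of 5, beside 0.00755%, with every limma adjusted p at 1 and 0 unadjusted p under 0.05. Its differences were -0.40 for Igf2bp3 (-1.52 to 0.72), -0.46 for Igf2 (-1.44 to 0.51), 1.06 for Dlk1 (-1.40 to 3.52), 0.16 for Afp (-2.89 to 3.21) and 0.02 for Gpc3 (-1.25 to 1.30). The test of whether the OFF difference depended on the Twist1 label gave 0 of 5, beside 0.0981%, with adjusted p-values of 0.881 to 0.997 by limma and 0 unadjusted p under 0.05. These intervals are wide, so equal levels are not shown.

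**Figure D2:**
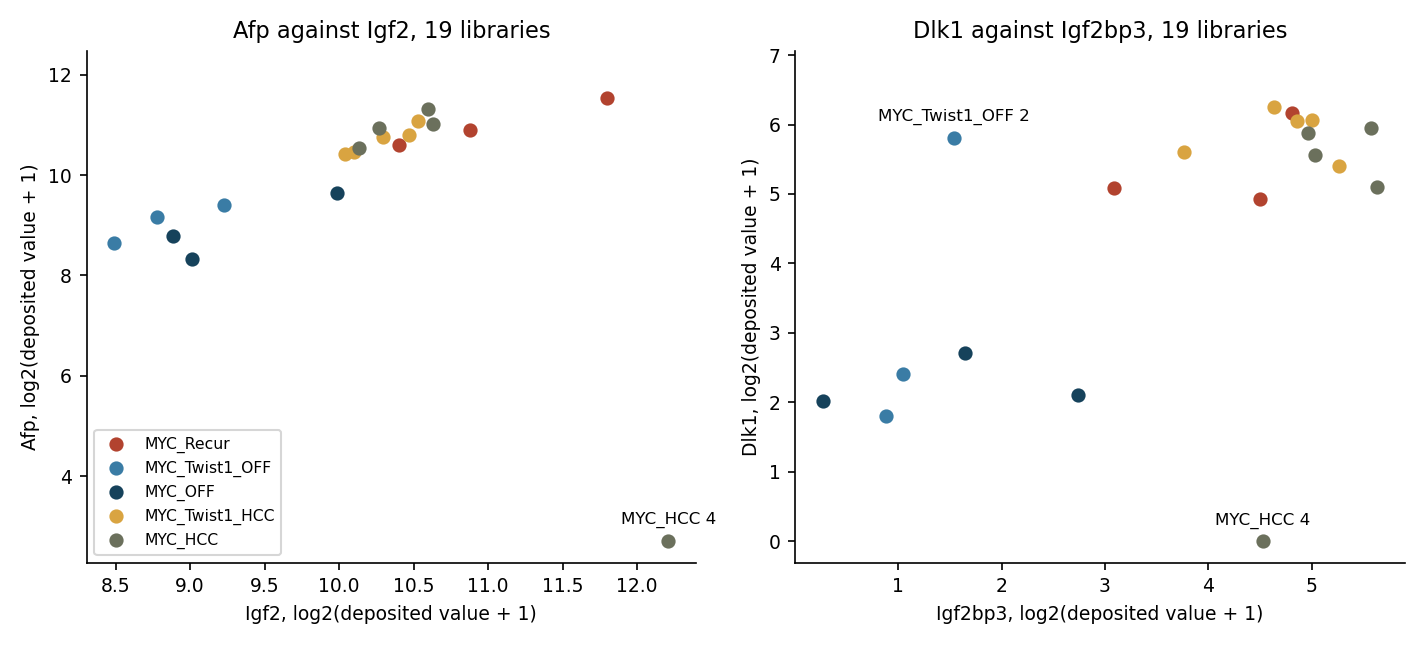
Afp against Igf2 (left) and Dlk1 against Igf2bp3 (right) in the 19 libraries, both axes on the log2(deposited value + 1) scale, with each group in its own colour. MYC_HCC 4 lies far from the other libraries on the left (Pearson r of 0.93 without it), and on the right it and MYC_Twist1_OFF 2 depart from the rest.

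Across libraries the genes varied in part together, which is a description over 19 points that share group and scaling. Afp and Igf2 had a Pearson r of -0.069 on the log2(value + 1) scale over all 19 libraries, and of 0.93 over the 18 without MYC_HCC 4. Dlk1 and Igf2bp3 had 0.60 over 19 and 0.81 over 18, Afp and Igf2bp3 0.31 and 0.85, and Igf2 and Igf2bp3 0.67 and 0.72. Afp and Dlk1 had 0.77 and 0.70. Gpc3 had -0.51 and -0.40 with Igf2, -0.46 and -0.45 with Igf2bp3, 0.16 and -0.35 with Afp and -0.078 and -0.36 with Dlk1, and Igf2 and Dlk1 had 0.099 and 0.55. Among all genes tested, those most like Igf2bp3 over the 19 libraries were Srsf6 (0.97), a splicing factor, Ptp4a2 (0.96), a phosphatase, and Dcaf13 (0.96). Among those most like Igf2 were Dbi (0.96), which binds acyl-CoA, and Gnmt (0.94), of methionine metabolism. Afp was most like Pmm1 (0.97), Arhgap8 (0.96) and Dnmt3a (0.96), with values of 0.89, 0.87 and 0.84 without MYC_HCC 4. Dlk1 was most like Adap1 (0.95), Plxnb1 (0.95) and Gmip (0.95), and Gpc3 most like Fxyd2 (0.89), Meis3 (0.87) and Lamb3 (0.87).

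The order of group means on the deposited scale differed by gene. Igf2bp3 ran from MYC_HCC through MYC_Twist1_HCC and MYC_Recur to MYC_OFF and MYC_Twist1_OFF, and the step between MYC_Recur and MYC_OFF was its only one between neighbours whose libraries did not overlap. For Igf2 the order was MYC_Recur, MYC_HCC, MYC_Twist1_HCC, MYC_OFF and MYC_Twist1_OFF, and the one step without overlap was that from MYC_Twist1_HCC to MYC_OFF. For Afp, Dlk1, Gpc3 and Lin28b all neighbours in the order overlapped.

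Lists of related genes put these values in context, and are described by counts beside those over all genes, in MYC_OFF against MYC_HCC and with limma, where 39.4% of all genes fell and 18.9% rose. Of 14 tested genes of the IGF axis other than Igf2, 8 fell and 1 rose, with a median log2 difference of -1.07 against -0.38 over all genes, and the balance became 4 to 6 falling and 3 to 5 rising under the 3 other scalings. Igf2r, the clearing receptor, fell (-1.19, SE 0.30, adjusted p = 0.00241), as did the growth hormone receptor Ghr (-2.37), and the binding proteins Igfbp4 (-1.98) and Igfbp7 (-2.69), while Igfals, which carries IGFs in plasma, rose (2.59). The libraries of Igf2r and Igfals overlapped between the groups, and Igfals was at 60.3 ± 92.5 in MYC_OFF, against 2.66 ± 1.55 in MYC_HCC (SD, n = 3 and 5). Igf1r, the signalling receptor, was at most 0.36 in any library, and so low a value was also found for Plagl1, an imprinted transcription factor, at most 0.58. Of 20 imprinted genes, 11 fell and 1 rose (8 or 9 fell and 2 rose under those scalings): Gnas (-2.82), a G protein subunit, Cd81 (-2.05), a tetraspanin, and Nap1l4 (-1.66), a histone chaperone, fell, and Rtl1 (0.71) rose. Rtl1 was low and its libraries overlapped between the groups, with means of 1.14 in MYC_OFF and 0.27 in MYC_HCC. Meg3, the partner of Dlk1, was at 5.04 ± 1.19 in MYC_OFF, against 4.91 ± 3.36 in MYC_HCC (SD, n = 3 and 5, limma adjusted p = 0.552).

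Among 20 tested regulators of Afp and genes of the albumin family, 12 fell and 1 rose, with a median of -1.07, and 2 rose under those scalings and without MYC_HCC 4. Alb itself fell (-2.79, SE 0.34, limma adjusted p = 2.09e-06), to 321 ± 80.4 in MYC_OFF, against 2407 ± 1262 in MYC_HCC (SD, n = 3 and 5), and so did its relative Gc (-2.42), which carries vitamin D, and the factor Cebpb (-1.97). Foxa2, a liver transcription factor, rose (6.31), to 697 ± 366 in MYC_OFF, against 7.77 ± 5.15 in MYC_HCC. Zhx2, a repressor of Afp known from mice, was at 3.39 ± 3.32 in MYC_OFF, against 2.05 ± 0.680 in MYC_HCC (limma adjusted p = 0.708), and Zbtb20, another, was listed at 0 in 16 of 19 libraries. Of 24 genes of the LIN28 and let-7 pathway, 5 rose and 4 fell, while 7 to 10 rose and 3 fell under those scalings and 8 fell without MYC_HCC 4: E2f6 (2.72), a transcription factor, and Rdh10 (1.76), of retinoid metabolism, rose, and ZCCHC6, printed as deposited, fell (-1.76). Hmga2, a chromatin protein and let-7 target, was at 0.99 to 5.84 over the 19 libraries and was not called. Of 15 glypican and Wnt genes, 3 fell (2 or 3 under those scalings, with 1 or 2 rising), among them Ctnnb1 (-1.02), which encodes beta-catenin, and 1 rose, Gpc5, at 1.04 ± 0.280 in MYC_OFF and listed at 0 in all 5 MYC_HCC libraries. Gpc5 passed the filter on low values only through OFF libraries, where it was higher, so its calls here and below are tied to that selection. The glypican Gpc4 was at 3.66 to 12.9 in MYC_OFF, against 8.59 to 14.0 in MYC_HCC (limma adjusted p = 0.24). Of 11 genes of Notch signalling and partners of Dlk1, 5 fell, among them the target Hes1 (-1.28) and Fn1 (-3.31), which encodes fibronectin, and the ligand Jag2 (1.34) rose. Under those scalings 2 or 3 of this list fell.

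Of 22 other oncofetal or progenitor genes tested, 9 fell and 5 rose in MYC_OFF against MYC_HCC, beside 39.4% falling and 18.9% rising over all genes. These counts are near those shares and do not set the list apart. The desaturase Scd2 (-2.35) and the peptidase Anpep (-2.30) fell, and the receptor Robo1 rose (7.19), to 411 ± 122 in MYC_OFF, against 2.17 ± 1.79 in MYC_HCC (SD, n = 3 and 5). In the libraries labelled MYC_Twist1_HCC against MYC_HCC, Foxa2 (3.58), Robo1 (3.95), E2f6 (1.35) and Rdh10 (0.84) were higher and Alb (-1.01) and Fn1 (-1.20) lower by limma, with adjusted p-values of 0.000797, 0.000915, 0.013, 0.0285, 0.0448 and 0.0376. Of 28 alternatives, 18 lost the call of Alb here, 10 that of Fn1 and 6 that of Rdh10, in each case with the one without MYC_HCC 4 and 5 among them, and for Alb all 3 scalings. No list gene was called in MYC_Twist1_OFF against MYC_OFF.

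In MYC_Twist1_OFF against MYC_Twist1_HCC, 33.5% of all genes fell and 13.1% rose. Of 14 genes of the IGF axis 4 fell, a smaller share than over all genes, and 0 rose (2 and 2 under each of the other scalings), with Igf2r at -0.81 (SE 0.30, limma adjusted p = 0.0336, lost in 8 of 28 alternatives), Igfbp4 at -1.52, Ghr at -1.53 and Igfbp7 at -1.27 (lost in 6). Of 20 imprinted genes 9 fell and 0 rose (8 and 2 under those scalings), led by Gnas (-2.48), Nap1l4 (-1.59) and Cd81 (-1.36). Of the Afp regulators and albumin genes 12 of 20 fell and 1 rose, with Alb at -2.02 (SE 0.34, limma adjusted p = 0.000117), Cebpb at -1.81, Gc at -2.22, Rassf6 at -2.20 and Foxa2, which rose, at 2.98. Of the Notch and Dlk1 list 5 of 11 fell (3 or 4 under those scalings, with 1 rising), among them Hes1 (-1.24), Fn1 (-2.02) and Adam17 (-0.97), a protease that cleaves DLK1. The LIN28 and let-7 list had 4 of 24 on each side (4 or 5 higher and 2 lower under those scalings), with the chromatin protein Hmga1 (1.97) and Rdh10 (0.96) higher and ZCCHC6 (-1.04) lower. The glypican and Wnt list had 3 of 15 lower (2 under those scalings, with 1 to 4 higher), among them the Wnt receptor Fzd7 (-2.43), and Gpc5 higher (1.14). Of the other oncofetal genes 8 of 22 were lower (3 to 5 under those scalings), among them Scd2 (-2.25) and Anpep (-1.61), and 3 were higher, among them Robo1 (3.54).

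In MYC_Recur against MYC_OFF, 37.5% of all genes rose and 12.0% fell. There 10 of 20 imprinted genes rose and 0 fell, with a median of 1.33 against 0.45 over all genes and with Gnas (2.18), Nap1l4 (1.68) and Cd81 (1.68) in the lead. Under the other scalings 8 or 9 of them rose and 0 or 1 fell, with medians of 0.85 to 0.99. Of the Afp regulators and albumin genes 10 of 20 rose and 2 fell (3 or 4 fell under the other scalings), with Alb at 2.50 (SE 0.37, limma adjusted p = 3.51e-05), Gc at 2.23, Cebpb at 1.92 and Foxa2, which fell, at -2.25. Of the IGF axis 4 of 14 genes rose, a smaller share than over all genes, and 1 fell, with a median of -0.05 (2 or 3 rose under the other scalings, with medians of -0.70 to -0.53). Among them were Igf2r at 1.34 (SE 0.33, limma adjusted p = 0.00296), Igfbp4 at 2.26, Ghr at 1.94 and the adaptor Irs1, which fell, at -0.77. Irs1 was low, averaging 0.433 in MYC_Recur, against 1.45 in MYC_OFF. Of the Notch and Dlk1 list 6 of 11 rose (2 or 3 under the other scalings), among them Fn1 (2.17), Hes1 (1.13) and the receptor Notch4 (1.07), and Notch3 fell (-0.66, lost in 14 of 28 alternatives). Both Notch genes were near the filter value: Notch4 averaged 1.45 in MYC_Recur, against 0.107 in MYC_OFF, and Notch3 0.08, against 0.763. Of the other oncofetal genes 8 of 22 rose (4 or 5 under those scalings), among them Scd2 (2.84) and Anpep (2.29), and 3 fell, among them Cd24a (-2.44), a surface protein of progenitor cells. The glypican and Wnt list had 4 of 15 higher (2 under those scalings, with 2 to 4 lower), among them the ubiquitin ligase Znrf3 (2.04) and Ctnnb1, and 2 lower, among them Gpc5 (-0.89). The LIN28 and let-7 list had 3 of 24 higher (0 or 1 under those scalings, with 6 or 7 lower), among them the ubiquitin-conjugating enzyme Cdc34 (1.16), and 5 lower, among them E2f6 (-3.62) and Hmga1 (-2.93). Up to 3 of 28 alternatives lost the calls of Cdc34, Ctnnb1, Hes1, Igf2r, Foxa2 and Notch4 here, and of Igf2r, Igfals, Rtl1 and Ctnnb1 in MYC_OFF against MYC_HCC.

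**Figure D3:**
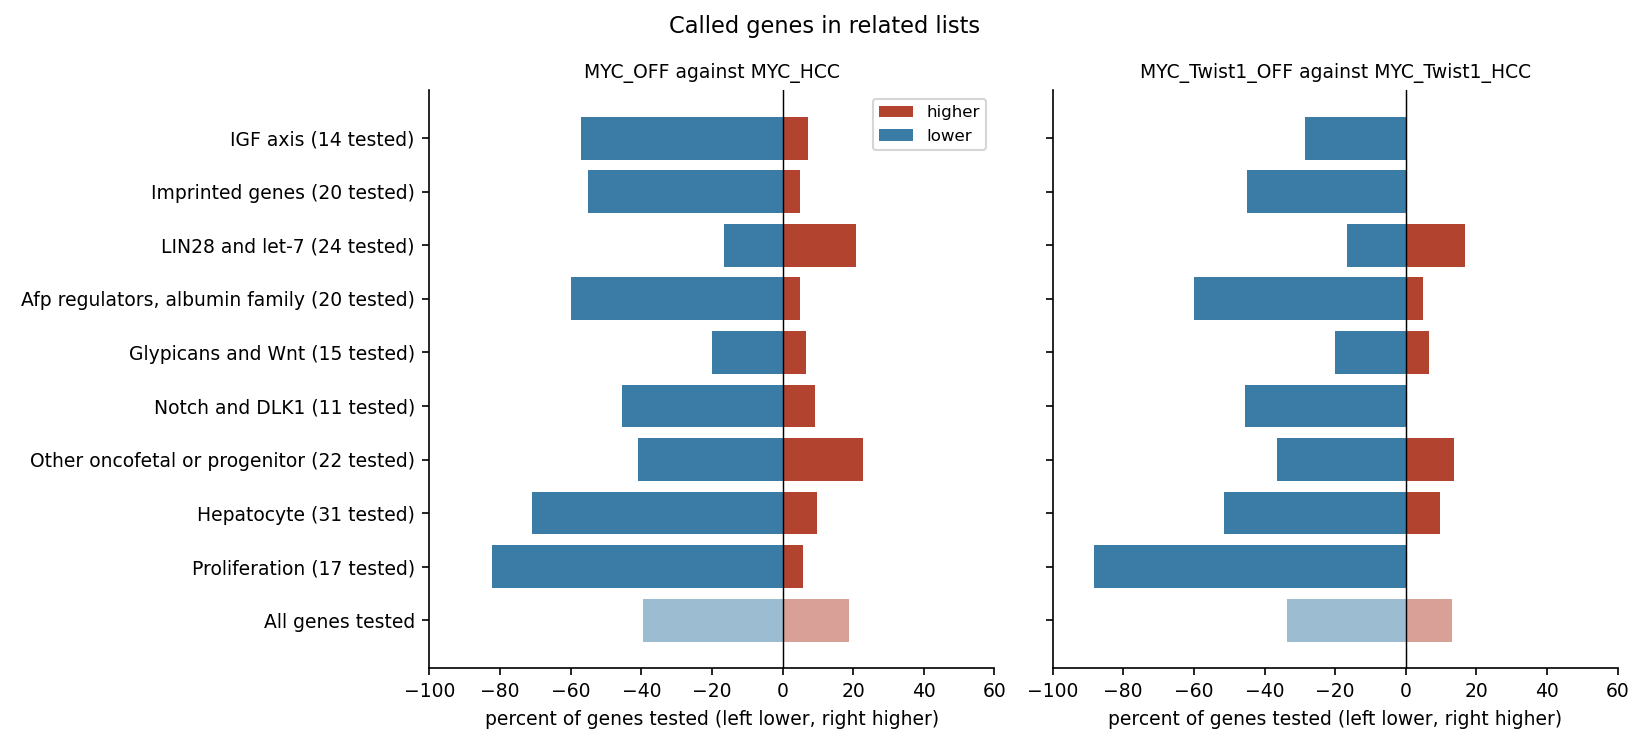
Share of tested genes of each related list called lower (bars to the left) or higher (bars to the right) by limma, in percent, for MYC_OFF against MYC_HCC (left) and MYC_Twist1_OFF against MYC_Twist1_HCC (right), with all genes tested in pale colours at the bottom. In MYC_OFF against MYC_HCC 39.4% of all genes were lower and 18.9% higher.

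On the deposited scale, markers of hepatocytes and of proliferation fell in most members in MYC_OFF against MYC_HCC. There 39.4% of all genes fell and 18.9% rose. Scaling by the median of ratios divides values by 0.683 to 0.895 in MYC_OFF and by 1.03 to 1.19 in MYC_HCC. The sums below were not rescaled, so their gaps and overlaps, that of hepatocyte markers included, can depend on the scaling. Among the other cell types, with all libraries on the deposited scale, only the lymphoid sums did not overlap between these groups. On that scale without MYC_HCC 4, the endothelial sums (22.6 to 35.7 in MYC_HCC) and the cholangiocyte sums (169.2 to 181.7) did not overlap with those of MYC_OFF either. Hepatocyte markers fell in 22 of 31 and rose in 3 in MYC_OFF against MYC_HCC, and proliferation genes fell in 14 of 17 and rose in 1. The hepatocyte sum was 9931 to 12902 in MYC_OFF, against 15302 to 29432 in MYC_HCC, and the proliferation sum 454 to 567, against 839 to 1535. Endothelial markers summed to 86.2 to 114 in MYC_OFF, against 22.6 to 118 in MYC_HCC, and to 89.1 to 173 in MYC_Twist1_OFF, against 26.9 to 47.1 in MYC_Twist1_HCC. Of 10 endothelial markers tested, 3 rose and 2 fell in MYC_OFF against MYC_HCC (5 rose under each of the other scalings and without MYC_HCC 4), and Pecam1, which defines these cells, was 24.7 to 81.6, against 3.18 to 28.2. The cholangiocyte keratin Krt19 was at most 0.06, against 0.24 to 1.64, and of the erythroid markers the embryonic globin Hbb-y was listed at 0 in all 19 libraries. Macrophage markers summed to 669.5 to 751 in MYC_OFF, against 320.4 to 965 in MYC_HCC, lymphoid markers to 9.51 to 30.5, against 5.22 to 8.09, and neutrophil markers to 38.6 to 277, against 22.9 to 64.9. Ptprc, which marks all leukocytes, went the other way, at 0.13 to 0.85 in MYC_OFF, against 3.08 to 5.29 in MYC_HCC, and at 0.31 to 0.75 in MYC_Twist1_OFF, against 1.64 to 6.70 in MYC_Twist1_HCC. Stellate and fibroblast markers summed to 39.8 to 67.0, against 36.1 to 169, cholangiocyte markers to 90.5 to 138, against 44.2 to 182, and erythroid markers to 211 to 454, against 312 to 422. In the same comparison 2 of 6 cholangiocyte markers fell, 2 of 12 stellate and fibroblast markers rose and 3 fell, and 2 of 12 macrophage markers rose and 3 fell (2 to 6 and 1 under the other scalings). Of 8 lymphoid markers 4 rose, of 7 neutrophil markers 2 rose and 1 fell, and of 6 erythroid markers 4 rose and 1 fell. With so few markers per list, these counts do not set a cell type apart from the shares of all genes above. Of 225 genes tested on the lists, 10 stood on more than 1, among them 5 of the 6 cholangiocyte markers. The hepatocyte sum was 14588 to 17513 in MYC_Recur and the proliferation sum 1438 to 1501, against the ranges of MYC_OFF above. In MYC_Twist1_OFF 2, where Dlk1 was 55.0, the hepatocyte sum was 10257, the endothelial sum 117 and the macrophage sum 449, and the sum of the other oncofetal and progenitor genes was 1784, against 483 and 746 in the other libraries of its group. Robo1, on that list, alone stood at 696 ± 698 in this group (SD, n = 3). The sum of the list therefore does not show that its genes rose together in this library. The part of these shifts in the differences of Afp, Igf2, Dlk1, Gpc3 and Igf2bp3 was not tested.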

How the data were processed

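RNA was taken from flash-frozen liver tumors with a Qiagen RNeasy kit and sequenced with BGI library protocols, per the labels. The submitters' processing notes list DESeq2, featureCounts, Picard, STAR and Trimmomatic and the mm10 build, without versions or order. The authors deposited 1 table of normalized signal per gene symbol, with 2 decimals. The formula is not given, the depth of each library is unknown and raw counts were not used here, so no counting interval is given.

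Of 19511 table lines, 25 whose symbol is a bare number were left out, and 162 of the 19486 genes kept were at 0 in every library. Of these symbols, 18141 matched a mouse gene name. Groups follow the labels, which name no animals, so p-values measure only the spread between these samples, which may be technical. Genes at 1 or more in at least 3 libraries (13253) were tested on log2(value + 1) with limma 3.58.1 in R 4.3.3, in 1 fit of the 5 group means with an intensity trend and 14 residual degrees of freedom. The fit was tested on simulated data. Tables and figures used Python 3.11.15, pandas 2.3.3, scipy 1.17.1 and matplotlib 3.10.9.

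The 7 comparisons were each adjusted over all genes. Alternatives were 3 scalings, a pseudocount of 0.1, no filter, no trend, a replicate block, the groups of a comparison alone, and leaving out libraries. The genes described and the lists of related genes and cell markers were chosen with earlier results of these data known. Named from each list of related genes were up to 3 called genes with the smallest adjusted p in a comparison and 1 called the other way, and regulators and paralogs of the members in any case. Markers of other cells are given as counts and sums. Not every gene with a pattern like a member's is reported here. The alternatives for the named genes and for the counts of lists, and the ratio to Alb, were chosen after seeing the data.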

Additional observations from a re-analysis of the deposited data

Results flagged for a closer look

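Of 37 sets of a gene in a group of 5 libraries, 10 held a library far from the other 4, by a test of the gap to the nearest value over the whole range that chance alone passes in about 5% of sets. In MYC_HCC 4, Afp was 5.55, the lowest of its group, Dlk1 was 0, and Igf2 was 4736.1, the highest. In the same library the transcriptional repressor Zbtb20 was 2.17 and the receptor Igf1r 0.26, both the highest of the group. Its Alb value of 4480.1 was the highest of all 19 libraries. In MYC_HCC 5, Gpc3 was 12.2, the highest of its group.

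Among the MYC_Twist1_HCC libraries, the values that stood apart were 0.35 for Lin28b in library 5, 0.03 for Zbtb20 in library 4, 0.12 for Igf1r in library 2 and 5.11 for Hmga2, an oncofetal chromatin protein, in library 2. The values of Lin28b, Zbtb20 and Igf1r lie under the filter on low values. For Lin28b and Zbtb20 the other 4 libraries were at 0, so any value above 0 would stand apart, and the rate of 5% does not apply to these sets.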

How the results depend on the processing

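Over 28 alternatives, Igf2bp3 was called in MYC_OFF against MYC_HCC, MYC_Twist1_OFF against MYC_Twist1_HCC and MYC_Recur against MYC_OFF in every case, at -4.44 to -2.95, -4.27 to -3.21 and 1.94 to 3.37. The 5 genes gave 2 calls in MYC_OFF against MYC_HCC, and 4 with the replicate block and 5 without MYC_HCC 4 and 5. They gave 2 in MYC_Twist1_OFF against MYC_Twist1_HCC, and 1 with the median of ratios, 1 with the upper quartile, 4 with the replicate block, 5 with the 2 groups fitted alone and 5 without MYC_HCC 4 and 5. They gave 3 in MYC_Recur against MYC_OFF, and 5 without MYC_HCC 4 and 5, while upper-quartile scaling and that by the median of ratios each lost Igf2 and Dlk1, kept Igf2bp3 and gained Gpc3. Leaving out 1 library gave 2 to 4 calls in each of these comparisons, with 4 without MYC_HCC 4, and 0 calls were made in the other 4 comparisons under any alternative. Deviations of same-numbered libraries from their group means correlated at -0.171 to 0.384. Libraries of unlike number were not compared, so these values cannot decide whether the numbers mark pairs. The labels state no pairing, and the numbers entered only the replicate block.

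Of 840 values of these genes, 765 kept their direction and side of the threshold, 17 lost a call, 31 gained one and 27 changed sign. Changed signs in MYC_OFF against MYC_HCC were those of Afp, at 0.17 with the median of ratios, 0.23 with the upper quartile and 0.0059 with the trimmed mean of M values, and -2.04 to 0.11 leaving out 1 library. Without MYC_HCC 4 and 5, MYC_Recur differed from MYC_HCC by -0.25 for Dlk1, and MYC_Twist1_HCC from MYC_HCC by -0.13 for Afp and 0.33 for Gpc3, which was 0.18 with a pseudocount of 0.1. Gpc3 in MYC_Twist1_OFF against MYC_OFF was -0.0462 with the median of ratios and -0.0413 with the trimmed mean. Leaving out 1 library, the ranges that crossed 0 were -0.25 to 1.90 (Afp) and -0.32 to 0.51 (Gpc3) in MYC_Twist1_HCC against MYC_HCC. In MYC_Twist1_OFF against MYC_OFF they were -0.13 to 0.52 (Afp), -0.18 to 1.83 (Dlk1), -0.28 to 0.57 (Gpc3) and -1.04 to 0.19 (Igf2bp3). In MYC_Recur against MYC_HCC they were -0.23 to 1.26 (Dlk1), -0.71 to 0.13 (Gpc3) and -0.13 to 0.62 (Igf2). The causes were not tested.

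Over all genes, 1435 were called in MYC_Recur against MYC_HCC, and 936 with the replicate block and 835 without MYC_HCC 4 and 5. In MYC_Twist1_HCC against MYC_HCC 852 were called, and 352 without MYC_HCC 4 and 5. Of 81 called values of other named genes, 18 lost the call under some alternative, Alb in MYC_Twist1_HCC against MYC_HCC in 18 of 28, and 0 changed sign. The unknown depth limits what the low values of Lin28b and Gpc3 can show.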

Other observations

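The ratio of each gene to Alb within a library was examined after the scaling was seen to move calls. It was taken on value + 1, so that for genes at low values, such as Gpc3, Igf2bp3 and Dlk1, it still depends in part on how libraries are scaled. On the log2 scale, the ratio of Igf2 to Alb was 0.99 in MYC_OFF, against -0.33 in MYC_HCC, with no overlap between the groups (n = 3 and 5, exact two-sided permutation p = 0.0357, the smallest these groups allow). In MYC_Twist1_OFF against MYC_Twist1_HCC it was higher by 0.56 with overlap (exact permutation p = 0.107). The ratio of Igf2bp3 to Alb was lower by 0.80 in MYC_OFF with overlap, and the difference was -1.53 in MYC_Twist1_OFF against MYC_Twist1_HCC without overlap (n = 3 and 5, exact permutation p = 0.0357). Gpc3 over Alb was higher by 3.64 in MYC_OFF against MYC_HCC and by 2.93 in MYC_Twist1_OFF against MYC_Twist1_HCC, both without overlap. None of 20 such tests passed after Benjamini-Hochberg adjustment, where the smallest adjusted p was 0.102 by the exact permutation test. The smallest p this test allows is 0.1 for MYC_Recur against MYC_OFF, which cannot pass, and 0.0357 for OFF against HCC, which leaves little room. The group sizes thus set much of that outcome, and no conclusion is drawn from it. A ratio shows unequal change of the 2 genes and not which of them changed.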
